A study of Homo sapiens with 15 samples.

Results

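DCP2, DCP1B, DDX6 and XRN1 encode central proteins of the decapping route of mRNA decay, and their transcripts were followed across 5 siRNA treatments of HEK293T cells, which are a human embryonic kidney line. The 4 genes were taken by name from the platform's table of probe sets and genes, out of 14884 genes with a named probe set. Each had 1 named probe set: 16988062 for DCP2, 16759977 for DCP1B, 16745085 for DDX6 and 16959925 for XRN1. Every value below is the deposited log2 level of such a probe set, so a difference of 1 is a doubling. Levels are compared between siRNA groups within a gene and never between genes, because probe sets differ in brightness.

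There were 15 arrays in 5 groups of 3. Cells received siRNA against LOC550643 (the gene of NoBody, a small protein that binds P-bodies, targeted with a commercial pool), against Dcp2, against DcpS or against GAPDH, or a non-silencing siRNA with no human target. At 48 hours after transfection every group, the non-silencing one included, was put under 1 ug/mL of actinomycin D, and RNA was taken 4 hours later, so no group was free of the drug. Actinomycin D blocks transcription, and a level here joins the amount before the drug with its decay under it. The series' description states that transcriptional responses outweighed decay in these data in spite of the drug. Per the series' description the Dcp2 siRNA was the related comparison, and the DcpS and GAPDH siRNAs the unrelated ones. Whether the 3 arrays of a group stem from separate cultures is not stated in the labels, and the spread behind each p-value may be technical.

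Most messenger RNAs of the cytoplasm first lose their poly(A) tail. DCP2, a Nudix hydrolase, then cuts off the 5' cap, and XRN1, an exonuclease that needs an uncapped 5' end, degrades the body from that end. DCP1A and DCP1B are cofactors that activate DCP2, EDC3 and EDC4 tie the complex together, and DDX6 is a DEAD-box RNA helicase that represses translation and links deadenylation to decapping. These proteins gather in P-bodies, cytoplasmic granules of untranslated mRNA. DcpS acts elsewhere, on the cap fragment left when mRNA is degraded from the 3' end.

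The arrays were much alike, with medians over all probe sets between 4.01 and 4.08 and correlations between 0.981 and 0.991 for every pair of arrays. GAPDH fell to 42.6% of the non-silencing level with its own siRNA (limma adjusted p = 2.70e-05). No named probe set stood for LOC550643 or DCPS, and their knockdown is not analysed here. Of 10 genes listed as typical of HEK293T cells 4 were measured. All 4 lay above the median of all probe sets, between 5.65 and 8.90, the brightest being IRS4 at 8.90 and LIN28B at 8.48. Of these, IRS4 fell with Dcp2 siRNA by -1.18 (limma adjusted p = 0.0307) and LIN28B with DcpS siRNA by -0.46 (limma adjusted p = 0.0153), and their part in the results for those siRNAs was not tested. The IRS4 call ended without any 1 Dcp2 siRNA array or either of non-silencing replicates 1 and 2 (limma adjusted p up to 0.150) and with the arrays' score on the axis described later as a covariate (0.0786). The LIN28B call ended without any of DcpS replicates 1 and 3 and non-silencing replicates 2 and 3 (up to 0.0792) and on the 6 arrays alone (0.0958). The measured markers of blood cells (2), fibroblasts (3), endothelial cells (3) and hepatocytes (3) lay between 2.39 and 5.31, and 3 of these 11 (THY1, APOA1 and TTR) were above that median.

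All 4 genes differed among the siRNA groups. In limma's moderated F test the Benjamini-Hochberg adjusted p was 8.37e-07 for DCP2, 0.000768 for DCP1B, 0.00303 for DDX6 and 0.0184 for XRN1, where 12.2% of all genes passed 0.05. DCP2, itself the target of the Dcp2 siRNA, had the smallest p of all 14884 genes. The groups held 97.4% of the variance of DCP2 over the 15 arrays, 91.2% of that of DCP1B, 86.5% of that of DDX6 and 79.1% of that of XRN1. Each gene had its own order of group means, but those of DCP2 and XRN1 differed only in an exchange of GAPDH and non-silencing siRNA. Neither gene was called between those groups. The SD within groups was 0.16 for DCP2, 0.10 for DCP1B and 0.11 for both DDX6 and XRN1, against a median of 0.15 over all genes. XRN1 passed the threshold neither without Dcp2 replicate 1 nor without Dcp2 replicate 2 (limma adjusted p up to 0.0835).

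**Figure D1:**
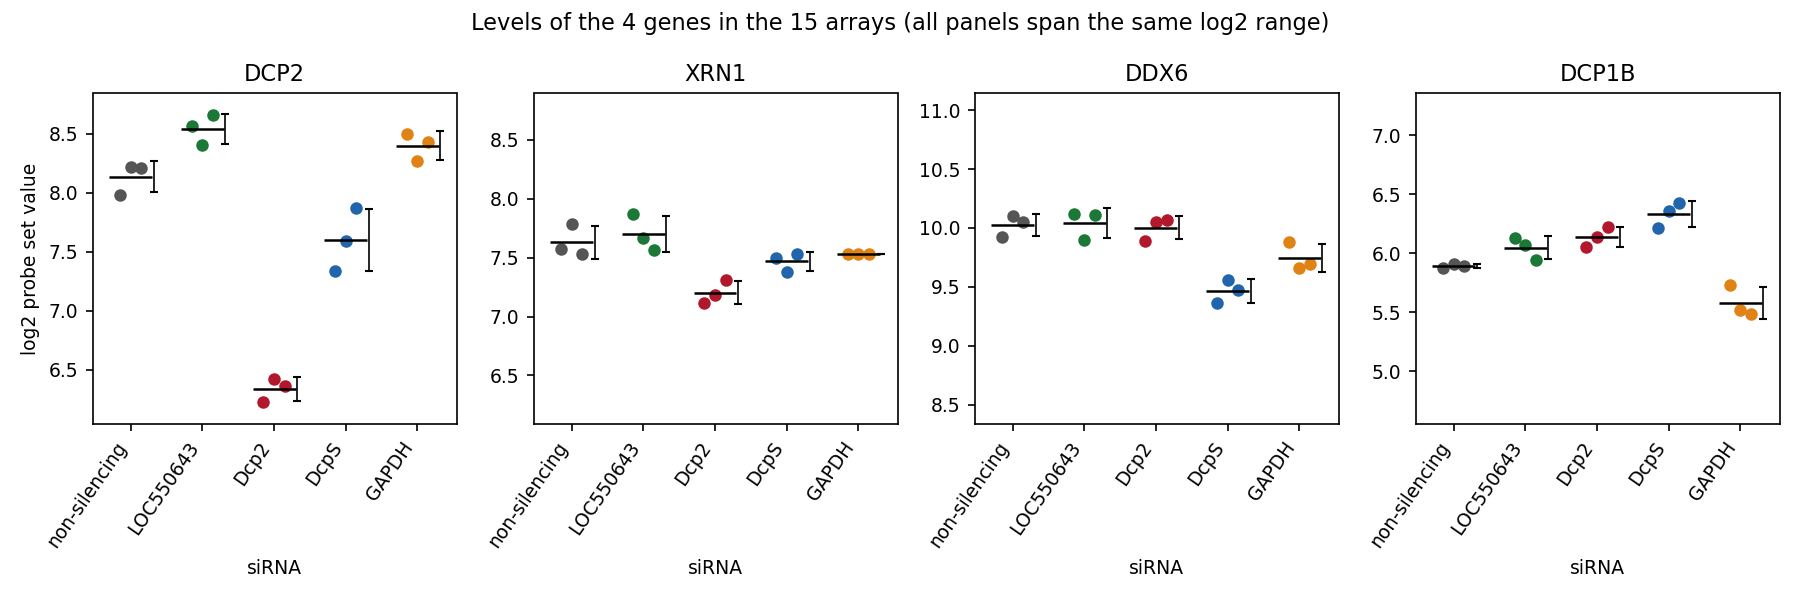
Log2 probe set values of DCP2, XRN1, DDX6 and DCP1B (y axis, 1 panel a gene, each panel spanning the same log2 range) by siRNA group (x axis). Points are the 3 arrays of a group from replicate 1 to 3, the line is their mean and the bar beside it 1 SD. DCP2 lay between 6.23 and 6.42 in the Dcp2 siRNA arrays and at 7.34 or above in all others, DDX6 was lowest with DcpS siRNA and DCP1B lowest with GAPDH siRNA.

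DCP2, the decapping enzyme itself, was the targeted gene of 1 of the groups. In the Dcp2 siRNA arrays it was at 6.23, 6.42 and 6.36. In the non-silencing arrays it was at 7.98, 8.22 and 8.21. The groups were far apart, and no array of any other group came within 0.9 log2 units of the highest Dcp2 siRNA array, the nearest being DcpS replicate 1 at 7.34.

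The fall was -1.80 log2 units (95% interval -2.07 to -1.53, limma adjusted p = 3.15e-06), which left 28.7% of the non-silencing level (23.9% to 34.5%). It was the deepest fall of all 14884 genes and had the smallest p in this contrast, in which 1.98% of genes passed the threshold. DCP2 was also lower than with each other targeting siRNA, though against DcpS siRNA 4 genes fell further. DCP2 in the Dcp2 siRNA arrays was at 23.9% of its level with GAPDH siRNA (19.9% to 28.8%) and at 41.7% of its level with DcpS siRNA (34.6% to 50.2%). Against LOC550643 siRNA the difference was 2.21 log2 units (1.94 to 2.47), the largest of any gene between those groups.

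DCP2 also varied among the groups that did not target it. With DcpS siRNA it was at 7.34, 7.60 and 7.87, all below the lowest non-silencing array, and with the widest spread of the 5 groups (SD 0.27, n = 3). The difference from non-silencing was -0.54 (-0.80 to -0.27, limma adjusted p = 0.0252, n = 3 each), or 68.9% of that level. This call was lost on leaving out either of DcpS replicates 1 and 2, or either of non-silencing replicates 2 and 3 (limma adjusted p up to 0.102), and with p-values adjusted over all probe sets (0.0795) or from these 6 arrays alone (0.145). The deviations of DcpS and non-silencing arrays of the same number correlated at 0.39, 0.11 and 0.12 over all genes, a hint of pairing only. With that number as a block the 6 arrays gave 0.0598 for DCP2 (limma adjusted p). Set against LOC550643 siRNA (a log2 difference of -0.94 seen from DcpS, limma adjusted p = 0.000385) and GAPDH siRNA (-0.80, limma adjusted p = 0.00100), DCP2 was lower with DcpS siRNA under every alternative run.

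With LOC550643 siRNA DCP2 was at 8.56, 8.40 and 8.66, and with GAPDH siRNA at 8.50, 8.27 and 8.43. All 6 of these arrays lay above the 3 non-silencing arrays. The differences from non-silencing were 0.40 (0.14 to 0.67, limma adjusted p = 0.148) and 0.26 (-0.0040 to 0.53, limma adjusted p = 0.378), and neither passed the threshold over all genes. Intervals here are for a single gene and are not widened for the number of genes, so that one can leave out 0 where the adjusted p does not pass. LOC550643 and GAPDH siRNA, neighbours at the top of the order, differed by 0.14 (-0.13 to 0.41, limma adjusted p = 0.627) and their arrays overlapped. From high to low, DCP2 thus ran from LOC550643 (mean 8.54) through GAPDH (8.40), non-silencing (8.14) and DcpS (7.60) to Dcp2 siRNA (6.34).

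XRN1, the exonuclease that acts on the decapped product, was lowest with Dcp2 siRNA. It was at 7.12, 7.18 and 7.31 there and at 7.57, 7.79 and 7.53 in the non-silencing arrays. The Dcp2 siRNA arrays were the 3 lowest of all 15, and none overlapped another group.

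The difference from non-silencing was -0.43 (-0.64 to -0.22, limma adjusted p = 0.0372), or 74.4% of that level. XRN1 and DCP2 were the members that passed in this contrast, 2 of 4 where 1.98% of all genes did, DCP2 being the target. The XRN1 call was close to the threshold. It was lost without any 1 of 7 arrays (LOC550643 replicate 2, Dcp2 replicate 1, 2 or 3, GAPDH replicate 1, non-silencing replicate 1 or 2), with limma adjusted p up to 0.147, while the difference stayed between -0.48 and -0.35. Against LOC550643 siRNA, whose arrays were at 7.87, 7.67 and 7.56, the difference was larger, at -0.50 seen from Dcp2 (limma adjusted p = 0.0117). That call was lost without LOC550643 replicate 1 or Dcp2 replicate 1 (limma adjusted p up to 0.0783). Against DcpS (-0.26, limma adjusted p = 0.144) and GAPDH siRNA (-0.32, limma adjusted p = 0.0976) XRN1 did not pass, so the fall was not shown to be particular to Dcp2 siRNA.

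In the other groups XRN1 differed little from non-silencing. The values were 7.50, 7.37 and 7.53 with DcpS siRNA (difference -0.16, -0.37 to 0.05) and the LOC550643 difference was 0.07 (-0.14 to 0.28). With GAPDH siRNA the 3 arrays held 1 identical value, 7.53, and DcpS replicate 3 held it too. That value was also the median of XRN1 over the 15 arrays. Such ties were common in the deposited table, since 9.53% of genes had 4 or more arrays at 1 value, for 1405 of these 1419 genes at the median of the 15 arrays, and 1.03% had a whole group at 1 value. The SD of 0 in the GAPDH siRNA group comes from this tie and is no measure of biological spread, and it enters the spread that XRN1 is tested with. With those arrays left out of the fit, the adjusted p of XRN1 was 0.0591 for Dcp2 against non-silencing and 0.0223 for LOC550643 against Dcp2 siRNA (limma). None of DCP2, DCP1B and DDX6 had a value shared by 2 arrays.

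**Figure D2:**
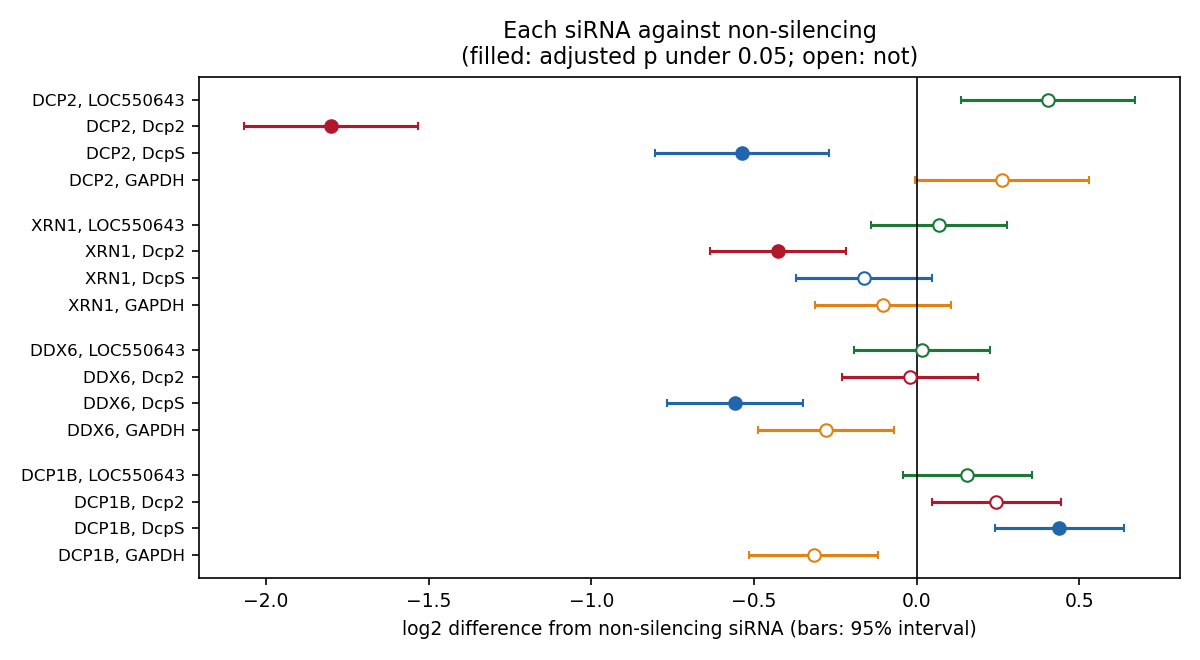
Log2 difference of each targeting siRNA from the non-silencing siRNA (x axis) for the 4 genes (y axis), with 95% intervals from limma. Filled points passed an adjusted p of 0.05 over all genes. DCP2 at -1.80 with Dcp2 siRNA stands apart, and the other filled points are DCP2, DDX6 and DCP1B with DcpS siRNA and XRN1 with Dcp2 siRNA, all within 0.6 of 0.

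DDX6, the helicase, was lowest with DcpS siRNA, at 9.36, 9.56 and 9.48. The non-silencing arrays were at 9.92, 10.10 and 10.05. The difference was -0.56 (-0.77 to -0.35, limma adjusted p = 0.00482), or 67.9% of the non-silencing level, and it stayed past the threshold without each of the 15 arrays in turn. Fitted on these 6 arrays alone its limma adjusted p was 0.0519, and 0.0430 with the replicate number as a block.

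DDX6 with DcpS siRNA also lay below its level with LOC550643 siRNA (10.12, 9.90 and 10.11; -0.57 seen from DcpS, limma adjusted p = 0.00242) and with Dcp2 siRNA (9.89, 10.05 and 10.07; -0.54, limma adjusted p = 0.00420). The GAPDH siRNA arrays, at 9.88, 9.66 and 9.70, sat between. They differed from DcpS by 0.28 (0.07 to 0.49, limma adjusted p = 0.119) and from non-silencing by -0.28 (-0.49 to -0.07, limma adjusted p = 0.196), with no overlap on either side. With Dcp2 siRNA the DDX6 difference from non-silencing was -0.02 (-0.23 to 0.19), and with LOC550643 siRNA it was 0.02 (-0.19 to 0.23). A change of more than 0.23 in either direction lies outside both intervals.

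DCP1B, the cofactor of DCP2, rose with DcpS siRNA. It was highest with DcpS siRNA, at 6.21, 6.36 and 6.43, against 5.87, 5.91 and 5.90 in the non-silencing arrays, whose SD was 0.02. The difference was 0.44 (0.24 to 0.64, limma adjusted p = 0.0140), or 135% of the non-silencing level. It was lost without DcpS replicate 2 or 3 (limma adjusted p up to 0.0611) and in the 6 arrays alone (0.0873, or 0.0671 with the replicate number as a block).

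DCP1B was lowest with GAPDH siRNA, at 5.73, 5.52 and 5.48, below every other array of the series. Its difference from non-silencing, -0.32 (-0.51 to -0.12), had a limma adjusted p of 0.108. Against the other targeting siRNAs the gap was wider. DCP1B was higher by 0.75 with DcpS (limma adjusted p = 0.000165), by 0.56 with Dcp2 (0.00355) and by 0.47 with LOC550643 siRNA (0.00852) than with GAPDH siRNA. With Dcp2 siRNA, where its partner DCP2 was lowest, DCP1B was at 6.05, 6.14 and 6.22, above all 3 non-silencing arrays by a mean of 0.24 (0.05 to 0.44, limma adjusted p = 0.194). With LOC550643 siRNA it was at 6.13, 6.07 and 5.95 (0.15, -0.04 to 0.35). DCP1A, the paralogous cofactor, had differences between -0.21 and 0.28 with the 4 siRNAs and was not called with any.

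Set out by siRNA, DcpS gave calls for 3 of the 4 genes (DCP2 and DDX6 lower, DCP1B higher) where 3.61% of all genes were called. That count fell to 1 without DcpS replicate 2, to 0 on the 6 arrays alone and to 1 on them with the replicate block. Dcp2 siRNA gave 2 of 4, or 1 in the settings named above that ended the XRN1 call. LOC550643 siRNA gave 0 of 4 in limma's test (1 at an unadjusted p under 0.05, DCP2), with 1.57% of all genes called, and GAPDH siRNA gave 0 of 4 (2 at an unadjusted p under 0.05, DCP1B and DDX6), with 2.0% called. The arrays of the siRNA and of the non-silencing group did not overlap for 2 of 4 genes with LOC550643 (17.0% of all genes), for 3 with Dcp2 (22.8%), for all 4 with DcpS (18.5%) and for all 4 with GAPDH siRNA (17.3%). For XRN1 with DcpS and GAPDH siRNA this rested on the tied value described above. At 7.526 it lay just below the lowest non-silencing array at 7.533, and XRN1 was not called with either (limma adjusted p = 0.468 and 0.716). The contrasts share the non-silencing arrays. Between LOC550643 and Dcp2 siRNA 2 of 4 were called (background 3.20%), between LOC550643 and DcpS 2 (6.40%), between LOC550643 and GAPDH 1 (4.08%), between Dcp2 and DcpS 2 (5.64%), between Dcp2 and GAPDH 2 (2.79%) and between DcpS and GAPDH siRNA 2 (5.98%). DCP2 was called in all of these but LOC550643 against GAPDH. In every comparison with Dcp2 siRNA, DCP2 was that siRNA's own target, and its call there is no response of an untargeted gene. XRN1 was called in 1 of the 6, DDX6 in 2 and DCP1B in 3.

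**Figure D3:**
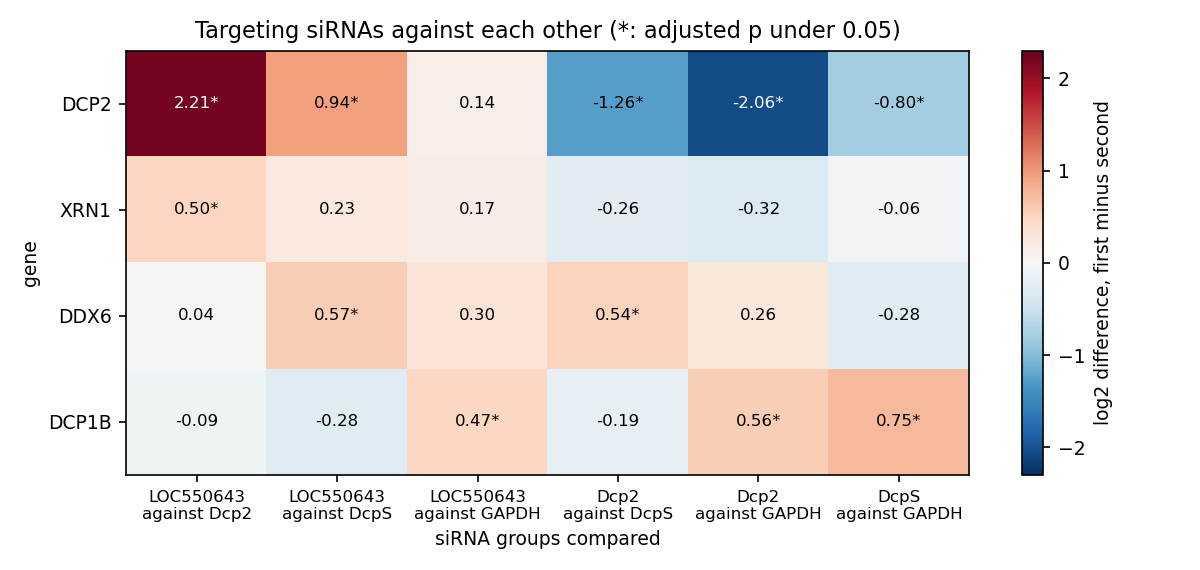
Log2 differences between pairs of targeting siRNAs (columns, first minus second) for the 4 genes (rows), with red for higher in the first group and blue for lower. Stars mark a limma adjusted p under 0.05. DCP2 has differences of 2.21 and -2.06 where Dcp2 siRNA is compared with LOC550643 and GAPDH siRNA, and DCP1B is higher with every other targeting siRNA than with GAPDH siRNA.

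Within groups the arrays also spread along 1 axis, the first principal component of all genes after removal of the group means, which held 24.7% of the variance within groups. Non-silencing replicate 1 (-20.2) and DcpS replicate 1 (-16.7) had the lowest scores on it, and both had the lowest DCP2 of their group. The direction of the axis was set so that the deviations of DCP2 rise with the score, and the sign for DCP2 is therefore a choice. The deviations of DCP2 from its group means followed the score with a correlation of 0.71 over the 15 arrays, those of DDX6 with 0.43, DCP1B with 0.0096 and XRN1 with -0.26. Group means of the score ran from -5.64 for non-silencing to 7.52 for Dcp2 siRNA. The score was taken from the spread within groups of these same arrays. As a covariate it takes up part of that spread by construction, and calls gained with it are no separate evidence. With the score as a covariate DCP2 was at -1.95 for Dcp2 against non-silencing, larger than without it. That shift follows from the positive correlation within groups and the higher mean score of the Dcp2 siRNA group, and is no separate check. With the same covariate XRN1 was at -0.39 and no longer called (limma adjusted p = 0.110). The deviations of DCP2 and DDX6 from their group means correlated at 0.72, although over all 15 arrays, group differences included, their correlation was 0.03. For DCP2 and XRN1 it was the reverse, at 0.15 within groups and 0.84 over all arrays. These correlations are descriptions over arrays that share groups and normalization.

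**Figure D4:**
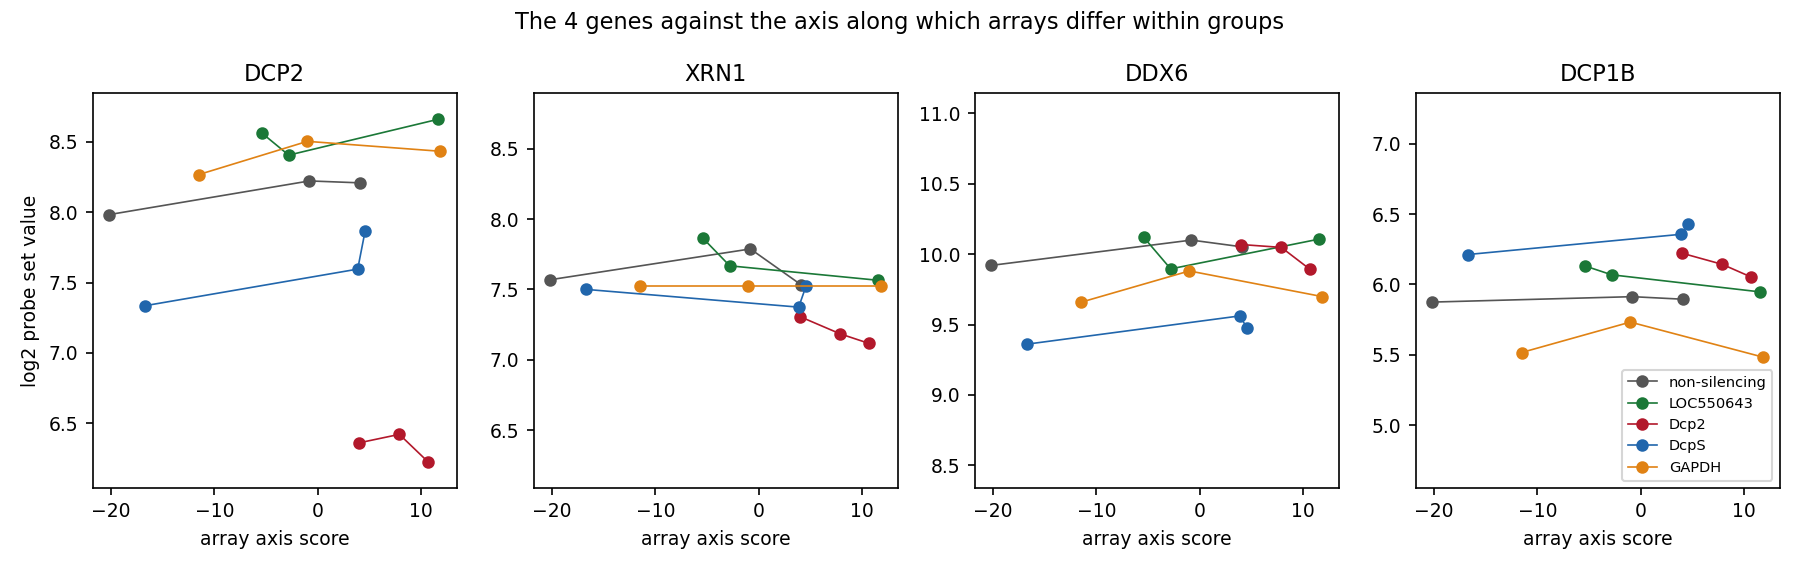
Log2 probe set values (y axis) of the 4 genes against the score of each array on the axis along which arrays differ within groups (x axis, no unit). Each point is an array, and lines join the arrays of a siRNA group in order of score. The Dcp2 siRNA arrays lie at scores of 4.00 to 10.7 and have the lowest DCP2 at any score, with non-silencing replicate 1 at -20.2 at the far left.

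The genes whose 15 levels were most like those of each member were found by Pearson correlation over the 15 arrays. Chosen on the same arrays, they share much of the member's group differences by selection. Their calls below are therefore not independent of the choice and are no separate evidence. For DCP2 they were NEK7, a mitotic kinase gene (0.95), NAE1, a subunit of the NEDD8-activating enzyme (0.93), and USP22, a deubiquitinase gene (0.93). NEK7 and NAE1 also fell with Dcp2 siRNA, by -0.63 and -0.46 against non-silencing (limma adjusted p = 0.0130 for both), less than DCP2. Leaving out Dcp2 replicate 1 or either of non-silencing replicates 1 and 2 ended both calls (limma adjusted p up to 0.0756). USP22 was at -0.21 and not called.

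For XRN1 the likest were GXYLT1 (0.94), GCC2, a golgin gene (0.89), and ODF2L (0.89), none called with Dcp2 siRNA, where they were at -0.41, -0.29 and -0.25. For DDX6 they were ARFGAP3, a GTPase-activating protein of the Golgi (0.96), SUDS3, a subunit of the SIN3 corepressor complex (0.94), and UBE2K, a ubiquitin-conjugating enzyme (0.90). ARFGAP3 and SUDS3 fell with DcpS siRNA by -0.81 and -0.76 (limma adjusted p = 0.000363 and 0.000848). They also fell with GAPDH siRNA by -0.47 and -0.57, a call lost for ARFGAP3 without any GAPDH or non-silencing array (limma adjusted p up to 0.0996) and for SUDS3 without non-silencing replicate 2 (0.0513). For DCP1B they were TOP1, DNA topoisomerase I (0.96), GPBP1L1 (0.93) and NUMB, a cell fate determinant (0.93). GPBP1L1 and NUMB rose with DcpS siRNA by 0.50 and 0.37 (limma adjusted p = 0.00479 and 0.0167), NUMB not when any of DcpS replicates 1 and 3 and non-silencing replicates 1 and 2 was left out (limma adjusted p up to 0.0640). On the 6 arrays with the replicate block the limma adjusted p was 0.0598 for GPBP1L1 and 0.0974 for NUMB. The correlations are descriptions and carry no test.

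The direct partners of the 4 proteins were set beside them. Of 21 listed genes for other decapping and P-body proteins, 11 had a named probe set, among them DCP1A, EDC3, EDC4, PATL1 and EIF4ENIF1, while the LSM ring genes had none. In limma's test 0 of 11 were called with any of the 4 siRNAs, with 2 at an unadjusted p under 0.05 for LOC550643, 2 for Dcp2, 1 for DcpS and 2 for GAPDH. Their median difference lay between -0.04 and 0.07, where the median of all genes lay between -0.0074 and 0.0018. For Dcp2 siRNA 1 of 11 was called without dim genes, with a trended robust prior or without non-silencing replicate 3. EDC3, a scaffold that binds DDX6 and DCP2, came nearest. It was 0.61 above non-silencing with Dcp2 siRNA (limma adjusted p = 0.0670), 0.46 with GAPDH (0.204) and 0.45 with LOC550643 siRNA (0.230). The groups did not overlap in these 3 contrasts, which share the non-silencing arrays, where 22.8%, 17.3% and 17.0% of all genes did not overlap either. EDC4, the scaffold to which NoBody is known to bind, was between -0.20 and -0.05 in all 4.

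Of 10 measured genes for other cap-processing enzymes and nuclear 5' exonucleases, 1 was called with any siRNA. NUDT19, which belongs to the Nudix family as DCP2 does, fell with Dcp2 siRNA by -0.76 (limma adjusted p = 0.0190), and leaving out Dcp2 replicate 1 or either of non-silencing replicates 1 and 2 ended the call (limma adjusted p up to 0.102). XRN2, the nuclear relative of XRN1, was at -0.12 with Dcp2 and -0.39 with DcpS siRNA, neither called. Of 6 measured deadenylation genes (21 were listed), NOCT, a relative of the CCR4 deadenylases, rose with Dcp2 siRNA (0.71, limma adjusted p = 0.0142) and DcpS siRNA (0.68, limma adjusted p = 0.00791). The first of these calls ended on leaving out any of Dcp2 replicates 1 and 3 and non-silencing replicates 1 and 2 (limma adjusted p up to 0.0866). CNOT11, a subunit of the CCR4-NOT complex, was at -0.30 with DcpS siRNA, a call (limma adjusted p = 0.0485) that was lost without any 1 of the 15 arrays (up to 0.170) and with the replicate number as a block (0.0658).

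Among genes of other decay routes, EXOSC6, a subunit of the exosome, which degrades RNA from the 3' end, fell with LOC550643 (-0.66, limma adjusted p = 0.00217) and DcpS siRNA (-0.54, limma adjusted p = 0.00451; 0.0608 on the 6 DcpS and non-silencing arrays with the replicate block). EXOSC7 was at 0.32 with DcpS siRNA (limma adjusted p = 0.0470), a call lost without any array but LOC550643 replicate 3 (up to 0.138, and 0.127 on those 6 arrays with the block), and the other 16 of 18 exosome and SKI genes were not called with any siRNA. UPF2, of nonsense-mediated decay, rose with LOC550643 siRNA by 0.64 (limma adjusted p = 0.0242), the 1 call among 6 measured genes of that pathway, lost without any LOC550643 array or non-silencing replicate 1 (up to 0.120). Of 11 translational repressors and AU-rich element factors, CPEB3 rose with LOC550643 siRNA (0.68, limma adjusted p = 0.0216) and EIF4E2, a cap-binding repressor, with GAPDH siRNA (0.44, limma adjusted p = 0.0303). Both were lost without single arrays, CPEB3 without any of LOC550643 replicates 1 and 3 and non-silencing replicates 1 and 3 (up to 0.120) and EIF4E2 without any GAPDH array or non-silencing replicate 1 or 2 (up to 0.126). Of 6 miRNA silencing genes 0 were called in limma's test (2 at an unadjusted p under 0.05 with LOC550643, 0 with the other siRNAs). These lists were measured in part only. They named 14 genes for miRNA silencing, 15 for nonsense-mediated decay and 18 for repressors and AU-rich element factors. The Argonaute and SMG genes had no named probe set.

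**Figure D5:**
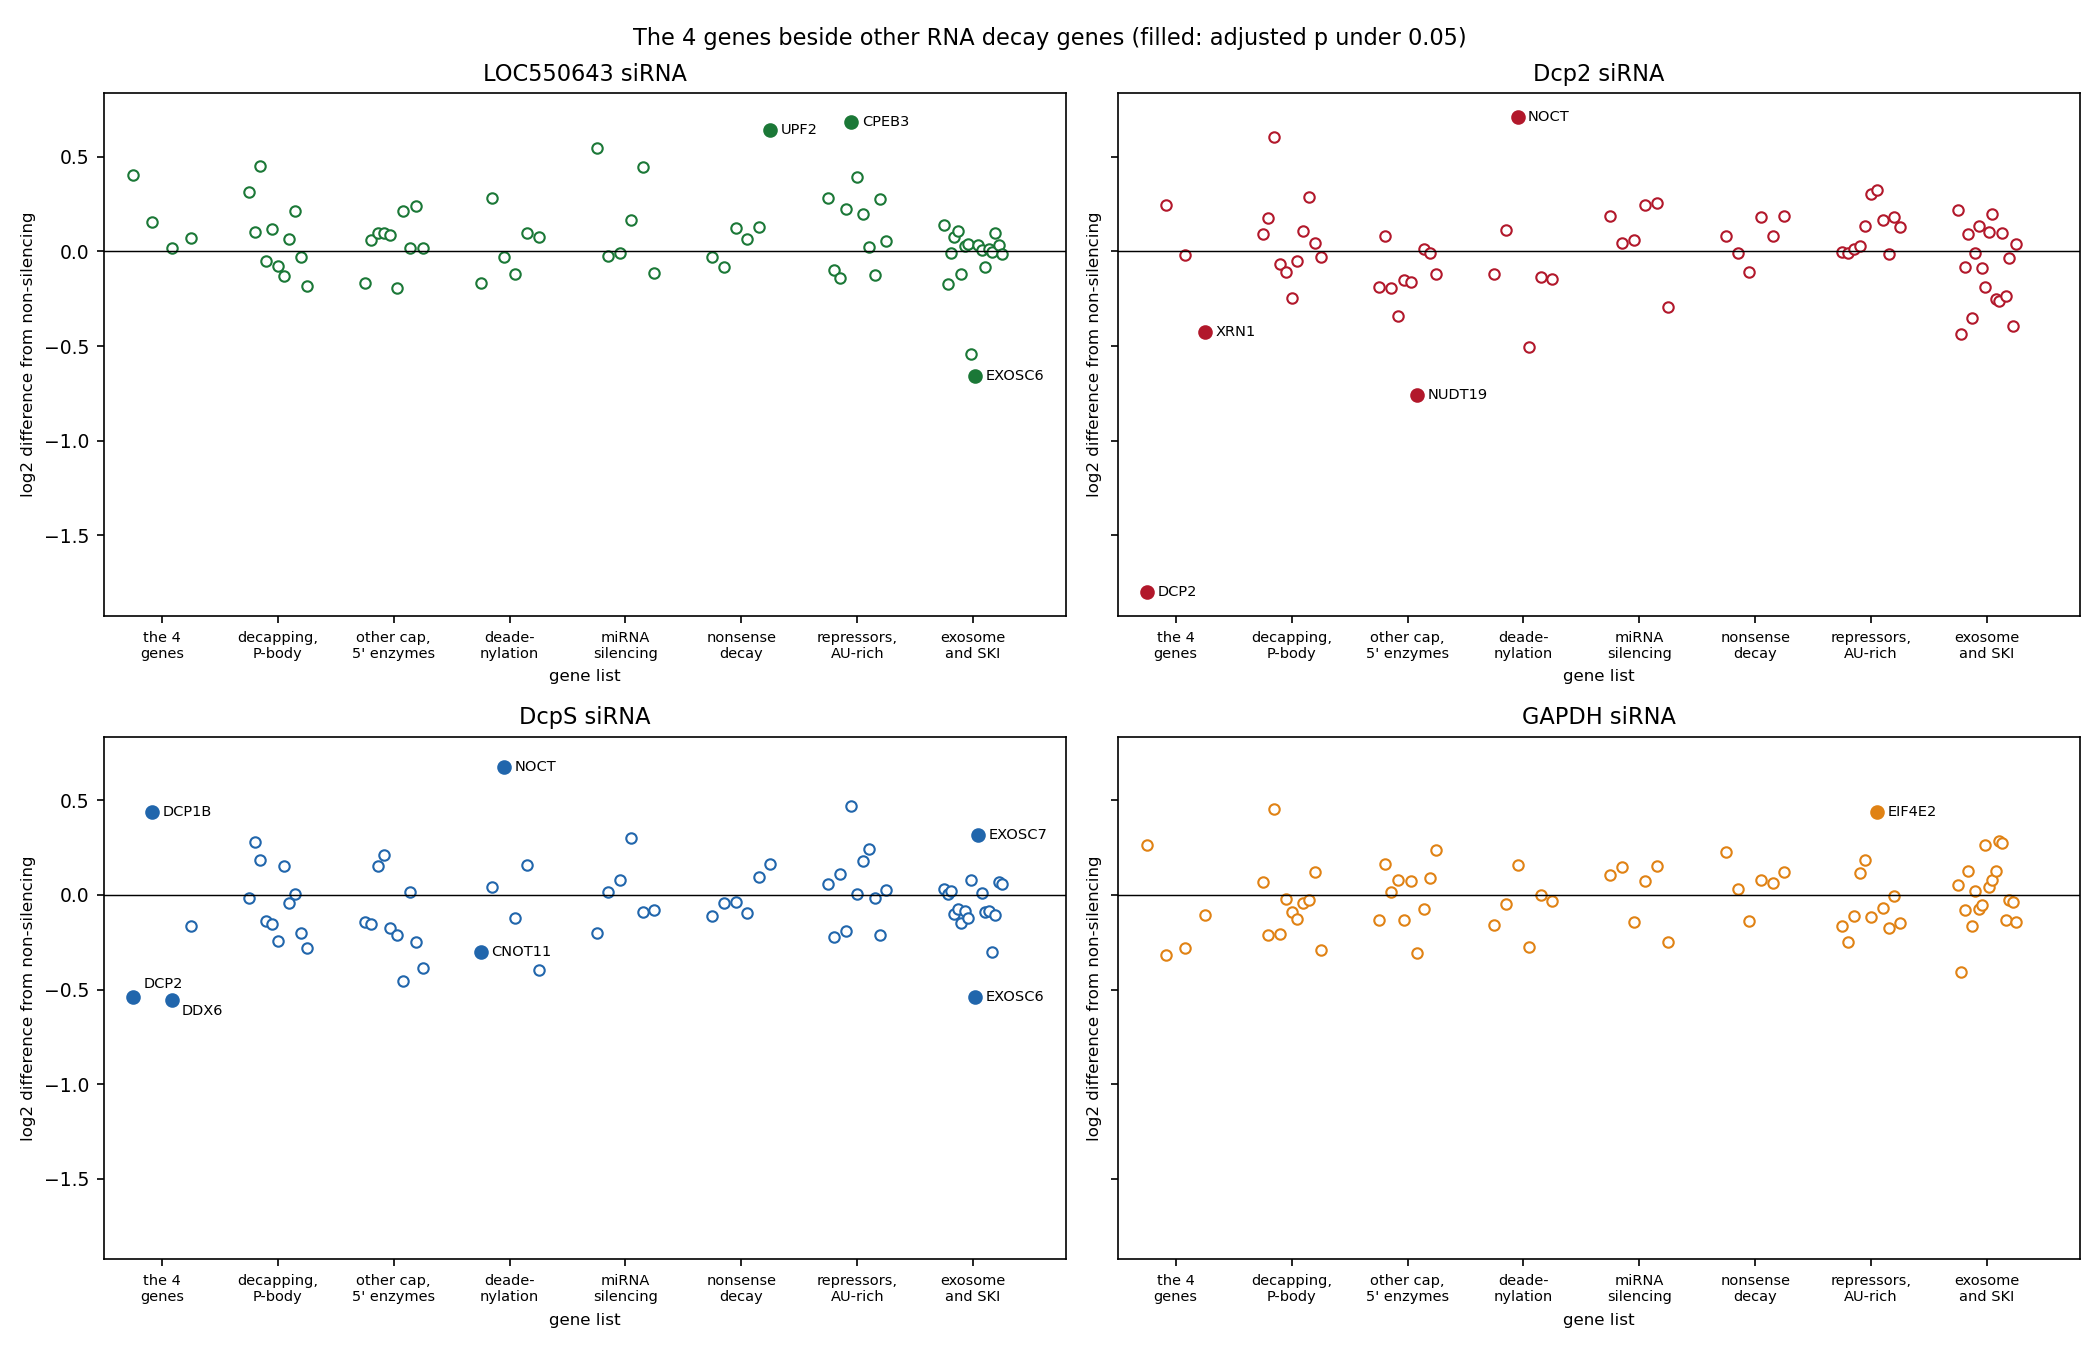
Log2 differences from non-silencing (y axis) for the 4 genes and 7 lists of other RNA decay genes (x axis), 1 panel a siRNA. Each point is a gene, filled and named where the limma adjusted p was under 0.05. DCP2 with Dcp2 siRNA, at -1.80, is the one decay gene shown that lies beyond 1 log2 unit in any panel.

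As context for the transfection and the drug, 0 of 11 measured interferon response genes were called with any siRNA in limma's test (2 at an unadjusted p under 0.05 with Dcp2, 0 with the other 3). All groups were transfected and given the drug, so a response that they share cannot show in these contrasts. Some of these genes were dim, such as CXCL10 at 2.58 and IFIT3 at 2.65, and others were not, such as EIF2AK2 at 8.50. Of 14 short-lived transcripts, 5 were called higher with Dcp2 siRNA, where 1.98% of all genes were called. The 4 of them with the smallest p, which is no order of size, were JUN at 1.42, ATF3 at 1.41, DUSP1 at 1.25 and EGR1 at 0.55. JUN stayed called without each array in turn, ATF3, DUSP1 and EGR1 not without any 1 Dcp2 siRNA array, and the number of calls in the list ran from 1 to 6 as single arrays were left out. With the axis score as a covariate ATF3 was at 0.90 and DUSP1 at 0.79, while EGR1 was at 0.49 and no longer called (limma adjusted p = 0.124). EGR1 was also not called with the mean of its named probe sets (0.37, limma adjusted p = 0.0526). MYC fell by -0.68 with GAPDH siRNA, and 0 were called with LOC550643 or DcpS siRNA (4 and 3 at an unadjusted p under 0.05). With the axis score as a covariate 4 were called with DcpS siRNA, but that score takes up spread within groups by construction.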

How the data were processed

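Total RNA was measured on 15 Affymetrix whole-transcript arrays. The authors deposited log2 probe set summaries made with RMA and the oligo package, per the submitters' processing notes. RMA's quantile normalization hides any shift of all transcripts. The log base was inferred from the range (1.30 to 14.0), and the versions, probe set level and genome build are not given in the sources used here. Of 53617 probe sets, 16098 had 1 gene symbol, 0 several and 37519 none here. For the 779 genes with several, the brightest was used, leaving 14884 genes. Groups came from the sample titles.

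All arrays were fitted in limma 3.58.1 (R 4.3.3) with 1 mean per group and no filter (10 residual degrees of freedom). Tests were two-sided and adjusted by Benjamini-Hochberg over all genes within a contrast, with calls at 0.05. Detection calls were not used. The number of arrays limits the precision. On data simulated for Dcp2 against non-silencing over 14884 genes, the share of altered genes recovered was 98.0% at a change of 1 log2 unit and 50.5% at 0.5. The simulation altered 200 genes and drew the noise of each gene independently. It left out the axis that the real arrays share, so the shares may differ for the real data.

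The members, gene lists and tests were chosen with earlier results of these data known. Named are the 4 members, the 3 likest genes of each, the targeted genes, and up to 4 called genes per decay list and contrast by smallest p. IRS4, LIN28B, THY1, APOA1, TTR, DCP1A, EDC3, EDC4, PATL1, EIF4ENIF1 and XRN2 were named outside that rule, for their role or their value. Replicate numbers did not pair the arrays over the 5 groups. For DcpS and non-silencing siRNA alone, the deviations of all 3 same-numbered pairs correlated above 0.1 (0.39, 0.11 and 0.12). The labels do not explain this hint from the data, and blocked values are given for that contrast. Non-silencing replicate 3 also correlated with replicate 3 of LOC550643 (0.32) and GAPDH siRNA (0.26), though not of Dcp2 siRNA (-0.12). A block on the 2 groups alone was not run for those contrasts. Alternatives are given in the closing section. The siRNA and protein sequences were not used here.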

Additional observations from a re-analysis of the deposited data

How the results depend on the processing

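The 44 member results (4 genes in 10 contrasts and the F test) were recomputed with a replicate block, on the 2 compared groups alone (contrasts only), with the mean of a gene's probe sets, over all probe sets, after median centring or repeated quantile normalization, without dim genes, with array weights, with a trended robust prior, with the axis score and without each array in turn. Alternatives chosen after seeing the data left out the GAPDH siRNA arrays, for results that do not use them, and put the block on the DcpS and non-silencing arrays alone. No called difference changed sign.

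On the 2 groups alone DCP1B was not called for DcpS against non-silencing (0.44) or LOC550643 against GAPDH (0.47), DCP2 and DDX6 not for DcpS against non-silencing (-0.54 and -0.56), and XRN1 not for Dcp2 against non-silencing (-0.43). Adjusted over all probe sets, DCP2 for DcpS (-0.54), XRN1 for Dcp2 (-0.43) and the F test of XRN1 (adjusted p = 0.0549) were not called. XRN1 for Dcp2 was not called with the axis score (-0.39) or without the GAPDH siRNA arrays (-0.43). After repeated quantile normalization DCP1B was called for LOC550643 against DcpS (-0.32). The causes were not tested. Without single arrays the difference of DCP1B for DcpS ran from 0.39 to 0.50, DCP2 for DcpS from -0.67 to -0.41, XRN1 for Dcp2 from -0.48 to -0.35, XRN1 for LOC550643 against Dcp2 from 0.41 to 0.56, and the adjusted p of XRN1's F test from 0.0163 to 0.0835.

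Replicate numbers are shared labels: 9 of 30 pairs of same-numbered arrays had deviations correlated above 0.1 (range -0.20 to 0.39), and 6 of 15 arrays correlated best with their own number. Over all arrays the replicate block changed no member's call: with it DCP2 for Dcp2 against non-silencing was at -1.80, and XRN1 at -0.43 (limma adjusted p = 0.0444). It ended 1 call of another named gene, CNOT11 with DcpS siRNA. For DcpS against non-silencing the block on those 6 arrays alone called 191 genes, and ended the calls of DCP2 (-0.54) and DCP1B (0.44) and of EXOSC6, EXOSC7, CNOT11, GPBP1L1, NUMB and LIN28B, while DDX6, ARFGAP3, SUDS3 and NOCT kept theirs. All genes called went from 294 to 436 for Dcp2, 538 to 595 for DcpS, 297 to 313 for GAPDH and 233 to 246 for LOC550643. On the 2 groups alone they were 39, 104, 44 and 53, with the axis score 124, 1004, 497 and 332, and without single arrays as few as 41, 276, 139 and 79. The axis score was taken from the spread of these same arrays, so counts gained with it are no separate evidence. Of 26 calls of genes outside the 4 that the text names, 7 held on the 2 groups alone (ARFGAP3 and SUDS3 with DcpS, EXOSC6 with LOC550643, JUN and IRS4 with Dcp2, and MYC and GAPDH with GAPDH siRNA). Signal over background was not used here, so no limit is set for dim probe sets.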
